A study of Mus musculus with 2 samples.

Results

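Ribosome biogenesis genes were described here as a set of 42 protein-coding genes chosen by symbol, each matched to a single row of the gene tables through its Ensembl identifier. All 42 of 42 were found, among 42462 annotated rows and 21474 protein-coding genes. They comprised 8 genes of RNA polymerase I transcription, 4 core proteins of box C/D particles, 4 of box H/ACA particles, 3 nucleolar scaffold proteins and chaperones, 10 small-subunit factors, 10 large-subunit factors and 3 factors of 60S export and release. The genes lay on 19 chromosomes.

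Total RNA-seq had been made from forebrains of healthy mouse embryos of strain B6NCrl at embryonic day 10.5. The 2 libraries, each from 10 ng of RNA, formed a single group: 69 embryos were pooled for replicate 1 and 51 others for replicate 2, males and females together. There was no other tissue, stage, genotype or treatment, so genes were compared with each other inside each library, and the pools with each other. For 2 samples an exact two-sided test over samples cannot go below p = 0.5, and no p-value is given.

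The ribosome is built in the nucleolus. RNA polymerase I transcribes a long precursor that holds the 18S, 5.8S and 28S rRNAs, guide RNAs in box C/D and box H/ACA particles direct its methylation and pseudouridylation, and a large cast of assembly factors cuts, folds and loads it with ribosomal proteins. The pre-60S and pre-40S particles are then exported to the cytoplasm and lose their last assembly factors there. In the early embryo this pathway supplies rapidly dividing neuroepithelium and neural crest, and human variants in several of its genes cause craniofacial disease.

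Depth was 43021202 expected counts (estimated reads per gene) for replicate 1 and 39215064 for replicate 2. Forebrain identity was checked with Six3, Lhx2, Otx2 and Emx2, of which 4 of 4 reached 1 TPM in both libraries, with summed levels of 200 TPM in replicate 1 and 198 TPM in replicate 2. TPM is a length-adjusted share of all transcripts in a library. None of 5 hindbrain and cord markers reached 1 TPM, and Hoxa3, Hoxb3 and Hoxb4 were at 0 in both. The pools also held RNA of other cells, with markers of mesenchyme at 453 and 459 TPM in replicates 1 and 2. Markers of surface epithelium were at 89.3 and 85.6 TPM, of endothelium at 66.3 and 68.5 TPM, and of macrophages at 37.6 and 36.9 TPM. Erythroid markers, 8 of 8 detected, summed to 24774 and 18117 TPM. In such bulk tissue a gene's low level in every cell and its presence in few cells cannot be told apart.

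Every member was transcribed at a measurable level. All 42 reached 1 TPM in both libraries, beside 57.3% of protein-coding genes. At least 50 TPM in both was reached by 34 of 42 members (81.0%), beside 15.3% of protein-coding genes. The median member was at 84.1 TPM in replicate 1 and 87.3 TPM in replicate 2, against 3.26 and 3.16 TPM for the median protein-coding gene and 20.0 and 20.3 TPM for the median detected one. The difference of medians on the scale of log2(TPM + 0.1) was 4.70 ± 0.071 (SD, n = 2 libraries) from all protein-coding genes and 2.08 ± 0.025 from detected ones, a 4.23-fold difference. Together the members took 0.706% and 0.733% of the annotated counts of replicates 1 and 2.

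**Figure D1:**
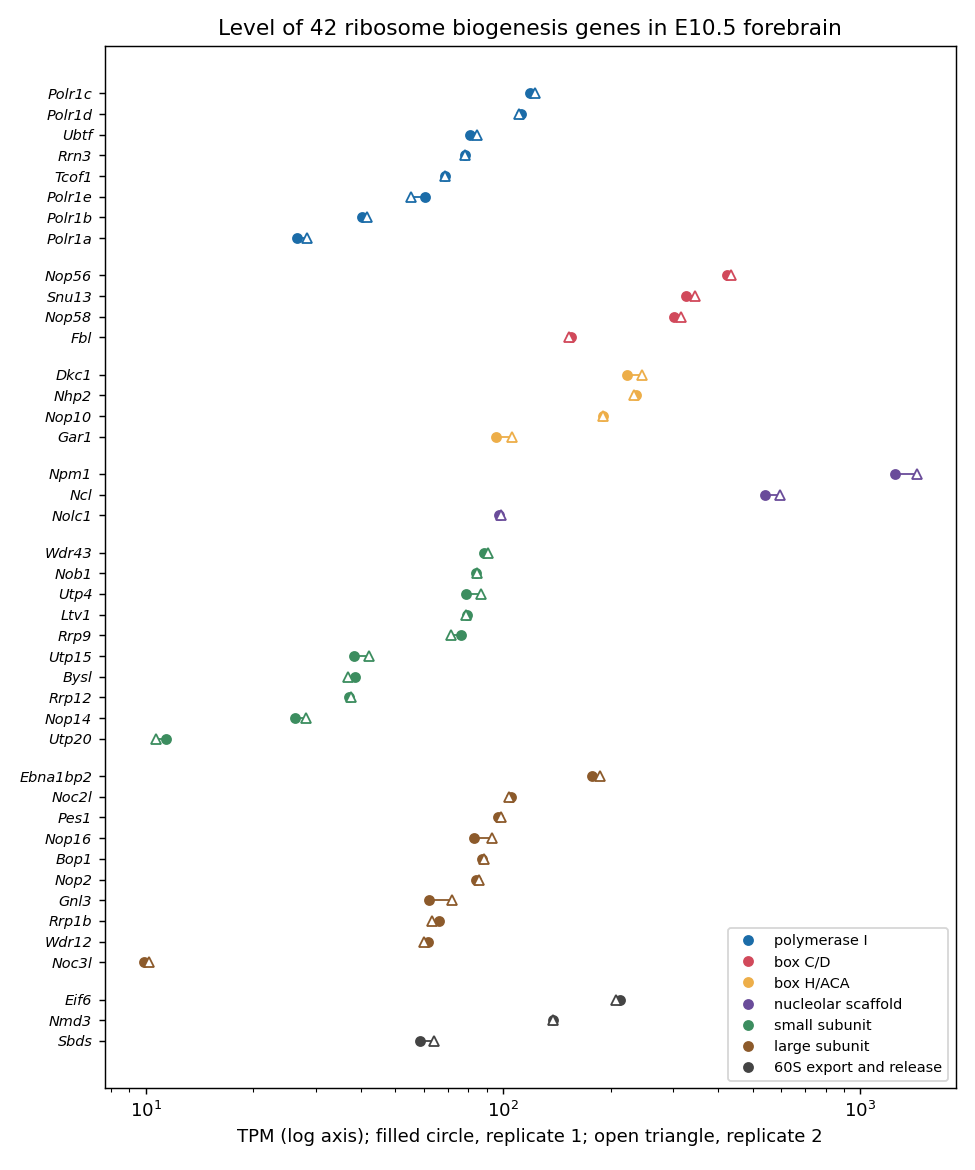
TPM on a log axis of each of the 42 members, by functional group, with replicate 1 as a filled circle and replicate 2 as an open triangle. Npm1 and Ncl stand highest and Utp20 and Noc3l lowest, and the 2 libraries lie close together beside the spread between genes.

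The order of the genes was well separated at its ends and close-packed in its middle. Npm1, Ncl, Nop56 and Snu13 led, and Utp20 and Noc3l came last. Of the 41 pairs of neighbours in the order, 19 had overlapping library values and could not be ordered. Genes of greater transcript length tended to have lower TPM. Spearman's rho between length and mean TPM was −0.658 across the 42 members and −0.302 across 12315 detected protein-coding genes. The length is the deposited one of replicate 1, which varies with the shares of a gene's transcripts. TPM is itself adjusted for length. This correlation is across genes within the same libraries, and genes are not independent replicates.

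By gene level, only the small-subunit group had a lower median than the genes that transcribe rDNA. The 8 polymerase I genes had a median of 73.6 ± 0.173 TPM (SD, n = 2), and 6 of them reached 50 TPM in both libraries. Polr1a encodes the largest, catalytic subunit and lies at chr6:71909053-71984935 on the plus strand of GRCm38; it had 26.5 TPM in replicate 1 and 28.2 TPM in replicate 2, the lowest level in the group. Polr1b, the second-largest subunit, had 40.3 and 41.7 TPM. Polr1e, part of the dimer that helps the enzyme bind its initiation factors, had 60.4 and 55.2 TPM, of which 37.9 and 36.1 TPM lay in protein-coding transcripts.

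Polr1c and Polr1d, which form an assembly platform that polymerase I shares with polymerase III, were the highest of the group. Polr1c had 119 and 123 TPM, and Polr1d had 112 and 111 TPM. Within a library Polr1c was 4.41-fold Polr1a in level (log2 difference 2.14 ± 0.032), far above the spread between libraries. By TPM, both shared subunits therefore lay above the core subunits used by polymerase I alone in both libraries. In counts not divided by length, Polr1a and Polr1b stood above both shared subunits. Polr1a had 4407 and 4232 counts and Polr1b 3974 and 3761, against 3520 and 3220 for Polr1c and 3281 and 2931 for Polr1d. The length was 6105 bases for Polr1a and 1169 for Polr1c.

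The factors that bring the enzyme to the rDNA promoter were close to each other. Ubtf, which encodes the HMG-box factor UBF that coats active rDNA, had 81.0 TPM in replicate 1 and 84.4 TPM in replicate 2. Rrn3, the factor TIF-IA that makes the polymerase competent to initiate, had 78.1 and 78.5 TPM. Tcof1, which encodes the nucleolar phosphoprotein treacle, had 68.8 and 68.9 TPM. The values of these genes did not overlap between neighbours, although they spanned less than 20 TPM.

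Tcof1, Polr1b, Polr1c and Polr1d are the genes of human Treacher Collins syndrome, and POLR1A variants cause an acrofacial dysostosis in people. The mouse genes spanned 27.4 ± 1.22 TPM for Polr1a to 121 ± 2.69 TPM for Polr1c (SD, n = 2), with Tcof1 at the median of the 5. All 5 were detected in both libraries, and 3 reached 50 TPM.

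Other parts of the polymerase I machinery were lower. Of 8 further factors all reached 1 TPM in both libraries but only Znrd1, at 79.6 ± 5.97 TPM (SD, n = 2), reached 50 TPM. Taf1d and Cd3eap, a subunit of the TATA-binding protein complex SL1 and a polymerase I subunit, were at 43.6 ± 4.31 and 36.5 ± 1.09 TPM. The lowest were the SL1 subunits Taf1a and Taf1c, at 19.8 ± 1.51 and 15.4 ± 1.17 TPM, and the termination factor Ttf1 at 10.6 ± 1.33 TPM. The median of these 8 genes was 27.3 ± 1.17 TPM.

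Set beside the other nuclear polymerases, subunits of polymerase I were below those particular to polymerase II and above those particular to polymerase III, by amounts that depended on which subunits were taken. For Polr1a to Polr1e, which include the shared Polr1c and Polr1d, the difference of log2 medians was −1.27 ± 0.089 (SD, n = 2; 0.414-fold) from 7 polymerase II subunits and 0.96 ± 0.089 (1.95-fold) from 11 polymerase III subunits. For the 6 subunits that polymerase I alone uses, Polr1a, Polr1b, Polr1e, Twistnb, Cd3eap and Znrd1, a choice made after their values were seen, it was −1.85 ± 0.002 (0.277-fold) and 0.38 ± 0.002 (1.31-fold). Among the largest subunits, Polr1a was at 27.4 ± 1.22 TPM, against 28.7 ± 0.785 TPM for Polr2a and 11.7 ± 0.332 TPM for Polr3a. The library values of Polr1a, 26.5 and 28.2 TPM, overlapped those of Polr2a, 29.2 and 28.1 TPM, while Polr1a was 2.35-fold Polr3a. Among the second-largest subunits Polr1b was at 41.0 ± 0.997 TPM, against 95.2 ± 1.83 TPM for Polr2b and 14.3 ± 0.375 TPM for Polr3b.

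**Figure D2:**
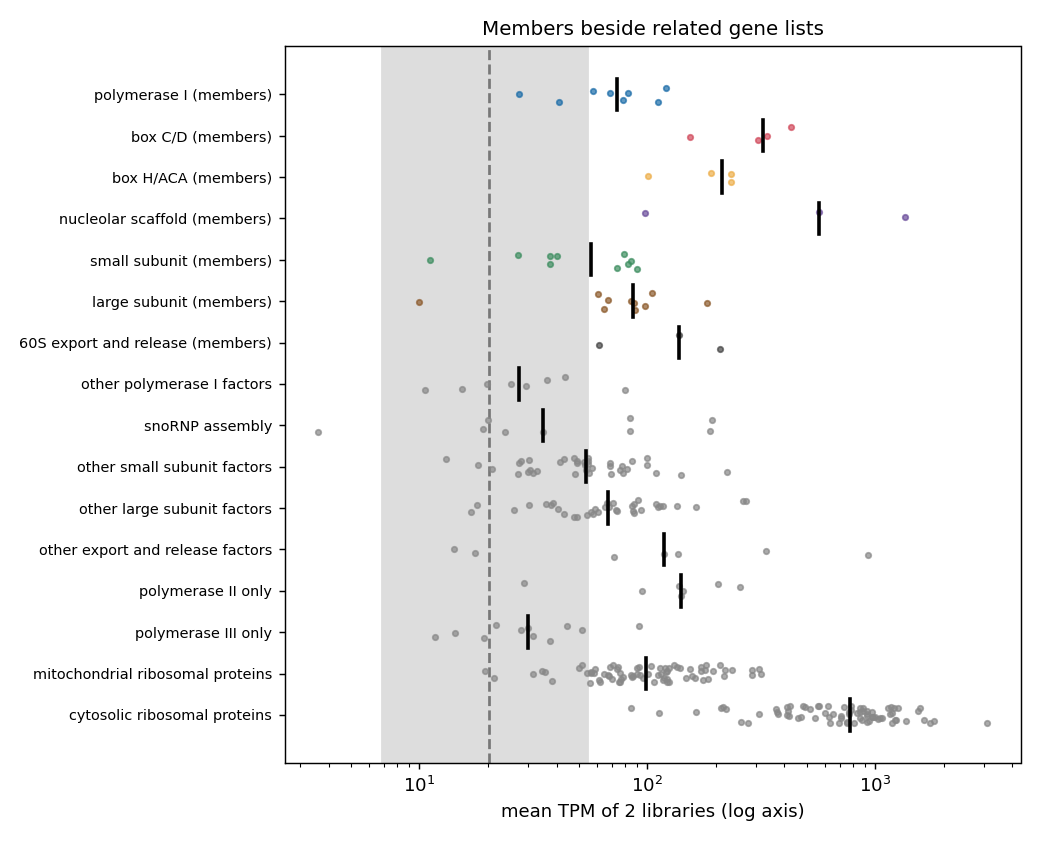
Mean TPM of 2 libraries on a log axis for each gene of the 7 member groups (coloured) and of related lists (grey), with a black bar at each list's median. The grey band is the interquartile range and the dashed line the median, 20.2 TPM, of detected protein-coding genes; all 4 box C/D members lie to the right of every polymerase I member.

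Proteins of the box C/D particles, which carry out 2′-O-methylation of rRNA, had a median of 321 ± 11.5 TPM (SD, n = 2), 4.36-fold that of the polymerase I genes (log2 difference 2.13 ± 0.048). On counts scaled to library size but not divided by length the log2 difference was 1.24. Only the scaffold group had a higher median, 569 TPM, which was the level of Ncl; in protein-coding transcripts alone the median was 258 TPM for box C/D proteins, against 98.2 TPM for the scaffold group. Nop56 had 423 TPM in replicate 1 and 434 TPM in replicate 2, and Nop58 had 301 and 314 TPM. These paralogous scaffold proteins sit side by side in the particle, and Nop56 exceeded Nop58 by 0.48 ± 0.015 on the log2 scale, or by 0.24 ± 0.043 in protein-coding transcripts.

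Snu13, which binds the kink-turn of the guide RNA and also serves the U4 spliceosomal particle, had 325 and 345 TPM in replicates 1 and 2. Fbl, the methyltransferase fibrillarin, was lowest of the 4 with 155 and 153 TPM. Snu13 exceeded Fbl by 1.12 ± 0.077 on the log2 scale. Fbl shares sequence with the processed pseudogene Gm5812, aligned over 984 bases at 96.8% identity. The pseudogenes of Fbl drew 381 and 328 counts, 8.37% and 8.11% of those of Fbl, so its level may depend on how reads were divided.

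Box H/ACA proteins, which guide pseudouridylation and also bind the telomerase RNA, had a median of 209 ± 3.65 TPM (SD, n = 2). It was 2.84-fold that of the polymerase I genes, a log2 difference of 1.504 ± 0.020. That difference was 0.39 on counts not divided by length and 0.94 in protein-coding transcripts. Dkc1, the pseudouridine synthase dyskerin, had 223 TPM in replicate 1 and 245 TPM in replicate 2. Nhp2 had 235 and 232 TPM and overlapped Dkc1, and Nop10 had 190 and 191 TPM. Gar1, the subunit that helps load and release substrate RNA, was lower with 95.3 and 106 TPM. Dkc1 exceeded Gar1 by 1.22 ± 0.017 on the log2 scale of levels, or by 0.81 ± 0.056 in protein-coding transcripts.

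In people, variants of DKC1, NHP2 and NOP10 cause dyskeratosis congenita; the mouse genes had a median of 228 ± 6.53 TPM. Particle assembly factors were spread more widely. Of 9 such genes all were detected, led by the ATPases Ruvbl2 and Ruvbl1 at 193 ± 1.15 and 188 ± 1.41 TPM and by Pih1d1 at 84.0 ± 1.17 TPM. The lowest were Znhit6 at 20.1 ± 1.94, Nufip1 at 19.0 ± 0.750 and Naf1 at 3.60 ± 0.0212 TPM. Naf1 occupies the place of Gar1 in immature H/ACA particles.

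By gene level the 2 most abundant members encode nucleolar scaffold proteins. Npm1 (ENSMUSG00000057113, chr11:33152287-33163206, minus strand) encodes nucleophosmin, a histone and ribosome chaperone of the granular component, and had 1252 TPM in replicate 1 and 1440 TPM in replicate 2. Ncl, which encodes nucleolin, an RNA-binding protein that acts in early rRNA processing, had 540 and 597 TPM. Npm1 exceeded Ncl by 1.24 ± 0.041 on the log2 scale (2.36-fold). Most of the TPM of Ncl lay in transcripts annotated as retained introns. In protein-coding transcripts, with Npm1 at 1233 and 1421 TPM and Ncl at 68.8 and 72.2 TPM, the ratio was 18.8-fold. That ratio rests on division by unlike lengths, 8202 bases for the coding Ncl-201 against 1192 for the leading Npm1-202. In replicates 1 and 2, Ncl-201 drew 12686 and 12286 counts and Npm1-202 drew 18627 and 19517. Nolc1, a chaperone of both classes of guide particle, had 97.5 and 98.8 TPM. Npm1 stood at percentile 99.5 and Ncl at percentile 98.3 among detected protein-coding genes by gene level.

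Small-subunit factors had the lowest median of the 7 groups, 57.0 ± 0.354 TPM (SD, n = 2), and 5 of 10 reached 50 TPM in both libraries. Wdr43, Utp4 and Utp15 belong to the processome module that joins the precursor early and is also needed for rDNA transcription. Wdr43 had 88.6 and 91.0 TPM in replicates 1 and 2, Utp4 had 78.8 and 86.5 TPM, and Utp15 had 38.2 and 42.1 TPM. By TPM, components of a single module thus differed in level beyond the spread between libraries. In counts not divided by length, Utp4 and Utp15 were closer, with 4688 and 4637 against 4195 and 4170, and Wdr43 had 8216 and 7612. The lengths were 2248 bases for Utp4, 4071 for Utp15 and 3450 for Wdr43.

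Rrp9, a protein of the U3 particle that pairs with the precursor, had 76.2 TPM in replicate 1 and 71.5 TPM in replicate 2. Nop14, a processome component, had 26.1 and 28.0 TPM. Utp20, a very long processome protein whose annotated transcript measures 8831 bases, had 11.4 and 10.7 TPM. It ranked next to last among members and at percentile 35.1 among detected genes.

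By TPM, factors of the late pre-40S particle fell into a higher and a lower pair. Nob1, the endonuclease that makes the 3′ end of 18S rRNA, had 84.2 TPM in replicate 1 and 84.8 TPM in replicate 2, and Ltv1, which is released from the particle in the cytoplasm, had 79.5 and 78.6 TPM. Bysl, a pre-40S scaffold protein, had 38.4 and 36.9 TPM, and Rrp12, an export factor, had 37.1 and 37.5 TPM. Bysl and Rrp12 overlapped each other. In counts not divided by length the order of the pairs was reversed. Nob1 had 3555 and 3161 counts and Ltv1 3668 and 3269, against 3990 and 3454 for Bysl and 4337 and 3948 for Rrp12. The lengths were 1626 and 1766 bases for Nob1 and Ltv1, and 3854 and 4319 for Bysl and Rrp12. In its exons Bysl overlaps 361 bases of Ccnd3 on the opposite strand, and Ccnd3 was at 251 and 267 TPM; no source used here gives the strand handling of the libraries, and reads there may have been shared.

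Among 38 further small-subunit factors measured, all reached 1 TPM in both libraries and 21 reached 50 TPM. The highest were Emg1 at 224 TPM, Tbl3 at 141 TPM and Pno1 at 109 TPM on average, and the lowest were Utp14a at 20.9 TPM, Dhx37 at 18.1 TPM and Pdcd11 at 13.1 TPM. Their median was 53.0 ± 1.34 TPM (SD, n = 2), near that of the 10 members.

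Large-subunit factors were higher. Their median of 85.3 ± 2.44 TPM (SD, n = 2) was 1.57-fold that of the small-subunit factors (log2 difference 0.65 ± 0.027), and 9 of 10 reached 50 TPM in both libraries. On counts scaled to library size but not divided by length, the log2 difference of large over small-subunit factors was 0.36.

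Pes1, Bop1 and Wdr12 form a complex needed to process the 5.8S and 28S rRNAs. Pes1 had 96.9 TPM in replicate 1 and 99.0 TPM in replicate 2, Bop1 had 87.3 and 88.2 TPM, and Wdr12 had 61.8 and 60.2 TPM. None of the 3 overlapped another, and their whole range was less than 40 TPM. Nop2, a methyltransferase of 28S rRNA, had 84.0 and 85.9 TPM. Nop16 had 83.2 and 93.0 TPM and overlapped both Nop2 and Bop1.

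Ebna1bp2, a partner of the Rrp1 family in early 60S assembly, had 177 and 187 TPM in replicates 1 and 2, the highest gene level of the group. In protein-coding transcripts alone it had 43.8 and 41.2 TPM, below 7 other large-subunit members, among them Noc2l at 105 and 104 TPM and Wdr12 at 56.9 and 56.7 TPM. Rrp1b, a nucleolar protein of that family, had 66.2 and 63.2 TPM, of which 20.9 and 22.5 TPM lay in protein-coding transcripts. Gnl3, the GTP-binding protein nucleostemin known from neural and embryonic stem cells, had 62.0 and 72.2 TPM.

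The genes of the related proteins Noc2l and Noc3l lay far apart. Noc2l had 105 TPM in replicate 1 and 104 TPM in replicate 2, and Noc3l had 9.86 and 10.2 TPM, the lowest level of any member and percentile 32.9 among detected genes. The yeast counterparts act together in pre-60S maturation. Among 36 further large-subunit factors all were detected and 25 reached 50 TPM, with a median of 67.4 ± 0.106 TPM (SD, n = 2). They were led on average by Rrp1 at 270 TPM, Rsl1d1 at 263 TPM and Mrto4 at 163 TPM, and ended with Ddx51 at 26.0 TPM, Mdn1 at 17.9 TPM and Ddx55 at 16.8 TPM.

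Export and release of the 60S particle was represented by Nmd3, Eif6 and Sbds. Eif6, which keeps the subunits apart until it is removed, had 212 TPM in replicate 1 and 207 TPM in replicate 2. Nmd3, the adaptor for nuclear export, had 138 TPM in both, but 7.15 and 7.03 TPM in protein-coding transcripts. Sbds, which evicts Eif6 and is affected in human Shwachman-Diamond syndrome, had 58.6 and 64.0 TPM. Its partner GTPase Efl1 was lower, at 17.5 ± 0.170 TPM (SD, n = 2), while the export GTPase Ran was at 929 ± 5.91 TPM.

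Set beside the cytosolic ribosomal proteins, which these factors assemble into ribosomes, the 42 members had a far lower median. They were only slightly below the mitochondrial ribosomal proteins. The difference of log2 medians was −3.17 ± 0.014 (SD, n = 2; 0.111-fold) from 76 cytosolic ribosomal protein genes, whose median was 774 ± 13.5 TPM. It was −0.20 ± 0.027 (0.869-fold) from 74 mitochondrial ribosomal protein genes, whose median was 98.6 ± 0.827 TPM. Npm1, at 1346 ± 133 TPM, was the only member whose mean exceeded the cytosolic ribosomal protein median. The RNA exosome, which trims the precursors, had a median of 86.7 ± 1.76 TPM over 10 genes, between Exosc8 at 170 ± 6.67 TPM and Dis3 at 31.9 ± 0.141 TPM.

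The 2 pools differed little in these genes, as in most annotated genes. On TMM-scaled counts the log2 ratio of replicate 2 over replicate 1 ran between −0.095 for Utp20 and 0.21 for Gnl3. None of 42 members differed over 2-fold, beside 0.589% of annotated genes averaging 50 counts or more, a count near that share. The median ratio was 0.022 for members and 0.004 for all those genes, whose 5th and 95th percentiles were −0.383 and 0.273. The coefficient of variation of TPM over the 2 libraries had a median of 2.33% in members. It was 3.18% for protein-coding genes at 10 TPM or more in both, which were not matched to the members in level.

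Small differences did exceed counting error. The 95% exact binomial interval of the ratio, which covers counting error only, excluded 0 in 16 of 42 members (38.1%), beside 34.7% of annotated genes, a share near the background. It lay above 0 in 13 members, beside 18.0% of annotated genes, and below 0 in 3, Utp20, Bysl and Wdr12, beside 16.7%. The ratios were 0.21 for Gnl3, 0.19 for Npm1, 0.14 for Gar1 and 0.13 for each of Ncl, Sbds and Utp15. With 1 library on each side these are differences between 2 pools, and erythroid markers were higher in replicate 1 and neuronal markers, at 328 TPM in replicate 1 and 250 TPM in replicate 2, likewise; their part in the ratios was not tested.

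**Figure D3:**
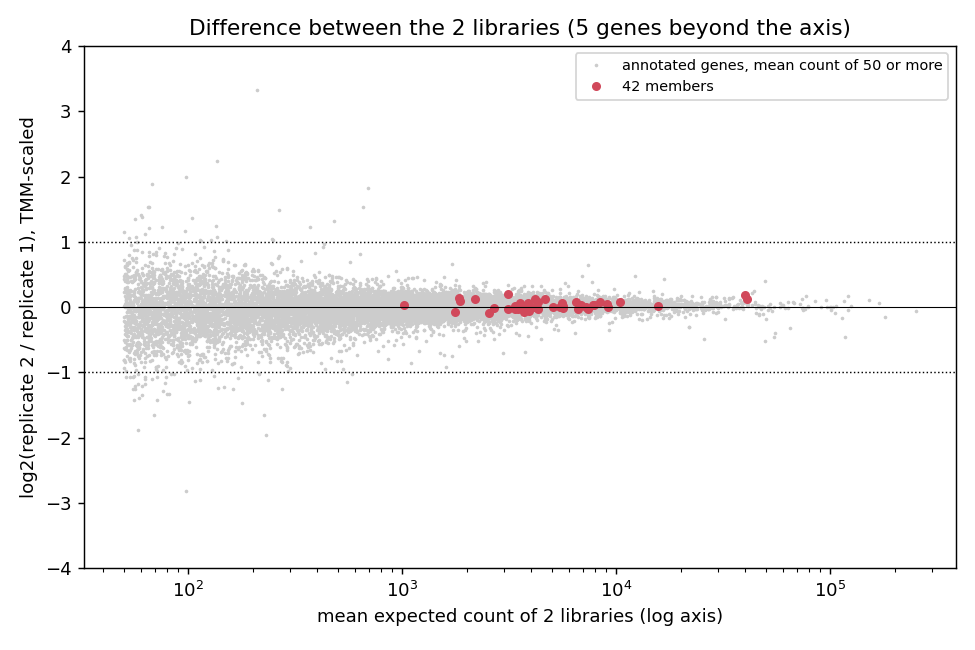
The log2 ratio of replicate 2 over replicate 1, on TMM-scaled expected counts, against the mean expected count (log axis) for annotated genes averaging 50 counts or more (grey) and the 42 members (red); dotted lines mark 2-fold and 5 genes lie beyond the axis. The members lie between −0.095 and 0.21, well inside the lines.

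Annotated transcripts showed where gene levels are hard to read. Of the 42 members, 16 had a single annotated transcript and 26 had several. Those with 1 transcript are wholly protein-coding. At least 90% of TPM lay in protein-coding transcripts in both libraries in 12 of the 26 others (46.2%), beside 50.2% of genes with several transcripts at 10 TPM or more, a share near the background. In 3 of the 26 (11.5%), Ncl, Nmd3 and Ebna1bp2, the leading transcript was not protein-coding in either library, beside 7.09% of such genes. The leader was the same in both libraries in 25 of 26, the exception being Gar1.

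Nmd3 was the most extreme. Its leading transcript Nmd3-208, annotated as a retained intron and 848 bases long, held 51.8% of the gene's TPM in replicate 1 and 53.0% in replicate 2. Protein-coding transcripts held 5.20% and 5.10% of the TPM but 38.1% and 38.3% of the reads. The coding Nmd3-201 is annotated at 9135 bases and drew 1422 and 1306 counts, against 1477 and 1365 for Nmd3-208. The low coding level of Nmd3 given above rests on the TPM shares, and so on division by these unlike lengths.

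Ncl showed the same pattern at a higher level. Ncl-202, a retained-intron transcript of 3072 bases, held 57.9% of the TPM in replicate 1 and 58.7% in replicate 2, and Ncl-205, another of 601 bases, held 27.6% in each. The coding transcript Ncl-201 is annotated at 8202 bases and held 10.5% and 10.2% of the TPM. Protein-coding transcripts together held 31.5% and 30.6% of the reads. By TPM, the high rank of Ncl therefore rested on transcripts that are not annotated as coding. As for Nmd3, this rests on division by unlike lengths. The coding Ncl-201 drew 12686 and 12286 counts, against 25735 and 25992 for Ncl-202.

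Ebna1bp2-202, annotated as a processed transcript of 788 bases, held 57.7% of its gene's TPM in replicate 1 and 59.3% in replicate 2. The protein-coding transcripts of Ebna1bp2 held 55.6% and 53.9% of the reads. The coding Ebna1bp2-201, of 2960 bases, drew 3129 and 2943 counts, against 1943 and 1908 for Ebna1bp2-202. Rrp1b and Dkc1 also had under 50% of their TPM in protein-coding transcripts, with 31.5% and 35.6% for Rrp1b and 43.9% and 43.2% for Dkc1. By reads these shares were 70.5% and 74.6% for Rrp1b and 74.3% and 74.0% for Dkc1. In Gar1 the coding Gar1-201 held 37.7% and 37.4%, and the retained-intron transcript Gar1-205 held 36.0% and 38.2%, so their order differed between libraries.

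**Figure D4:**
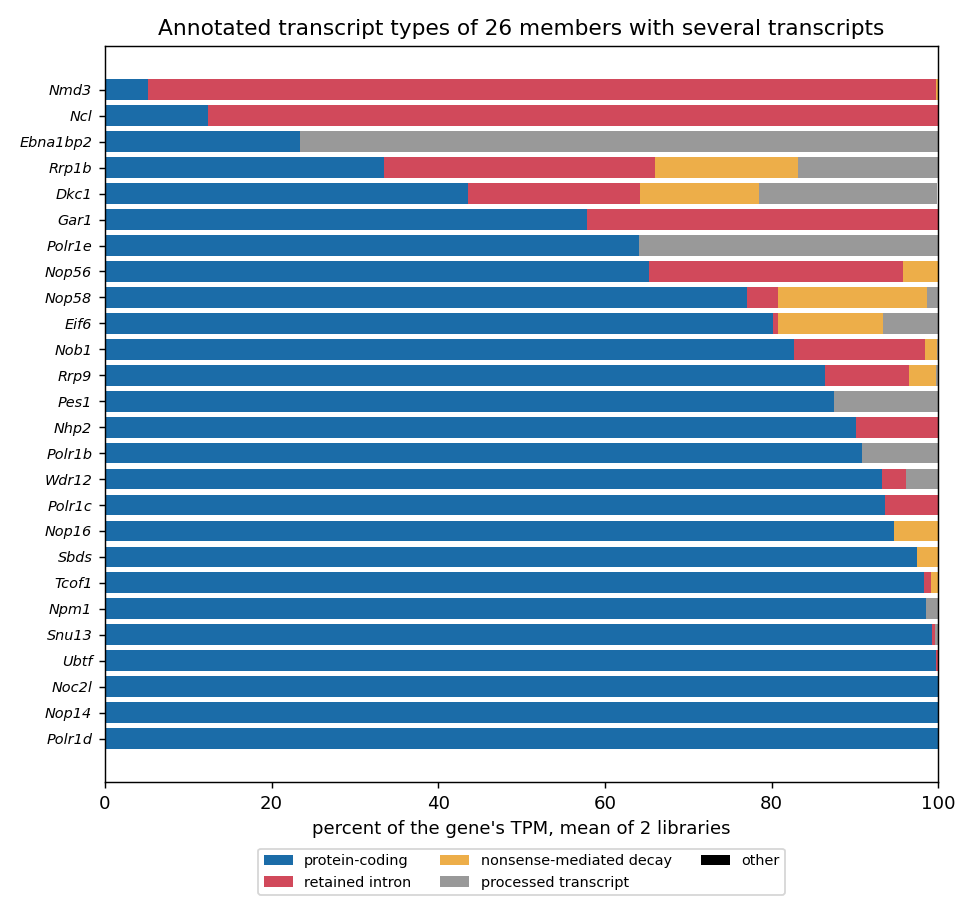
Percent of each gene's TPM, averaged over the 2 libraries, in each annotated transcript type for the 26 members with several transcripts, sorted by the protein-coding share. Nmd3, Ncl and Ebna1bp2 have the smallest blue protein-coding shares, and most genes in the lower part of the plot are almost wholly protein-coding.

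In some members several coding transcripts had sizeable shares, and the leading ones differed little between libraries. Polr1d-202 and Polr1d-201 held 59.8% and 40.2% of the TPM of Polr1d in replicate 1, and 59.5% and 40.5% in replicate 2. Tcof1-204 and Tcof1-202 held 48.0% and 42.1% in replicate 1, and 48.4% and 43.9% in replicate 2. Ubtf had 13 annotated transcripts, of which the coding Ubtf-202 held 40.7% and 40.6%, while the minor Ubtf-203 held 2.92% and 6.97% and Ubtf-210 held 4.50% and 1.47%. Polr1c moved more, with 72.3% and 67.3% in Polr1c-201 and 19.2% and 27.0% in Polr1c-203. Npm1-202 held 49.2% and 49.7% of the TPM of Npm1.

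Several members host guide RNA genes, the class of RNA that box C/D and H/ACA proteins carry. GENCODE M21 places 19 snoRNA genes on the same strand inside 6 members, Nop56, Nop58, Dkc1, Ncl, Wdr43 and Gnl3. They measure 68 to 133 bases, and 16 of them have an effective length of 0 in the tables, because they are shorter than 100 bases, and so received no value. Of the 3 others, Gm24451 inside Nop56 drew 11.0 and 8.00 counts in replicates 1 and 2, Gm25520 inside Dkc1 drew 0 and 1.00, and Snora75 inside Ncl drew 0 and 1.34. Whether guide RNAs followed their host genes could not be read from these tables. The share of all genes that host a snoRNA gene was not counted, so hosting is not read here as a trait of the members.

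Processed pseudogenes with at least 95% identity over at least 100 bases of coding transcript were annotated for 7 members. Beside Fbl, the largest share was that of Polr1d, whose pseudogene Gm12751 is identical to it over 381 bases and was given 246 and 275 counts in replicates 1 and 2, or 7.51% and 9.37% of those of Polr1d. The 6 pseudogenes of Npm1, of which 4 were measured, drew 0.720% and 0.747% of its counts. The shares were under 1% for Snu13, Nop56, Wdr12 and Pes1 too. Beside Bysl, 13 other members overlap a gene on the opposite strand in their exons, among them Noc2l, with 598 bases of Samd11, which was at 0.480 and 0.310 TPM. The shares of all genes with such pseudogenes or overlaps were not counted.

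The promoters of the members were searched because MYC-class factors that bind the E-box CACGTG are known regulators of ribosome biogenesis. RefSeq gave 44 windows for 35 members on GRCm38.p6, 250 bases before to 50 after the start, and several windows of a gene can overlap. The palindrome CACGTG was found in 8 windows of 8 members (18.2%), beside 7.15% of 32851 windows of all genes and 9.78% of 12494 windows of detected genes. The ETS core CCGGAAG, searched on both strands, was in 14 windows (31.8%), beside 8.86% of all and 17.3% of detected-gene windows. The GC box GGCGGG was in 63.6%, beside 35.3% and 62.4%, and TATAAA in 4.55%, beside 13.6% and 6.76%. A match describes letters only and shows no binding.

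Of the E-boxes, 4 in 3 genes lay before the start, and they are shown with 20 bases on each side because these genes act at the beginning, middle and end of the pathway: transcription (Rrn3), rRNA methylation (Nop2) and export (Nmd3). All are on the plus strand and capitals mark the E-box. The Rrn3 stretches lie at chr16:13780464-13780509 and chr16:13780631-13780676, and their E-boxes begin 215 and 48 bases before the RefSeq start. The Nop2 stretch lies at chr6:125131803-125131848 with its E-box 60 bases before the start, and the Nmd3 stretch at chr3:69721921-69721966 with its E-box 114 bases before it.
Rrn3 distal: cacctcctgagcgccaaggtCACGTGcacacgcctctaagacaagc
Rrn3 proximal: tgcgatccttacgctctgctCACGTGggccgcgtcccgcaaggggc
Nop2: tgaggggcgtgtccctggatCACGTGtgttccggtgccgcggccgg
Nmd3: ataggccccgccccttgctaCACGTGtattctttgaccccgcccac

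The 3 genes with these E-boxes had mean levels of 78.3 ± 0.290 TPM for Rrn3, 85.0 ± 1.39 TPM for Nop2 and 138 ± 0.113 TPM for Nmd3 (SD, n = 2), the last mostly in transcripts not annotated as coding. In Ltv1, Pes1, Utp20, Utp4 and Wdr43 the E-box lay after the start. These 5 genes included Pes1 at 97.9 ± 1.52 TPM and Utp20 at 11.1 ± 0.453 TPM.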

How the data were processed

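The authors deposited a gene and a transcript table per library on assembly mm10 with genome annotation M4, per the notes deposited with them; no source used here names the aligner, the quantification tool or the strand setting. Expected counts are estimated reads, not normalized, per the file headers. The deposited TPM and posterior mean TPM are length-adjusted shares over all 69691 rows, spike-ins included. The deposited share of each transcript, in percent of its gene's TPM, was used as given, per the file headers. Effective length is length minus a constant, so rows under 100 bases get no value.

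Symbols, transcript types and 1-based coordinates came from GENCODE M21 (GRCm38), and lengths from the deposited tables. The members and lists were chosen with earlier results of these data known. Of the forebrain marker list, 1 gene is not reported here, and the list's values leave it out. Of the 39 further small-subunit factors listed, 1 was not analysed here. All members could be named, along with up to 3 highest and up to 3 lowest genes of each list; Samd11 and Ccnd3, as genes overlapping a member, and Twistnb, as a polymerase I subunit, were chosen after their values were seen. Polymerase subunits and disease genes form lists of their own, and some genes are in more than 1 list.

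List levels were medians of TPM within a library, and differences between lists were those between medians of log2(TPM + 0.1). Ratios between libraries used expected counts plus 0.5 over library sizes scaled by TMM in edgeR 4.0.16 (R 4.3.3), with expected counts rounded to whole numbers for the factors and for the biological coefficient of variation, 6.806% over 17042 genes. DESeq2 1.42.0 size factors were an alternative. The ratio step was tested on simulated data. Coding transcripts were aligned to pseudogenes with blastn 2.17.0. The labels give each pool as a biological replicate, and SDs measure the spread between 2 pools. Python 3.11.15 with pandas 2.3.3 and scipy 1.17.1 was used for the rest.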

Additional observations from a re-analysis of the deposited data

How the results depend on the processing

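All 42 members stayed detected at 0.5 and 5 TPM, on posterior mean TPM and in each library alone. The median member was at 102 TPM when TPM was rescaled over protein-coding genes only and at 78.5 TPM over protein-coding transcripts only, and 30 members then reached 50 TPM. Protein-coding transcripts and the 50 TPM settings were chosen after seeing the data. Counts scaled to library size without length division gave log2 differences of 1.24 for box C/D over polymerase I, 0.39 for box H/ACA over polymerase I and 0.36 for large over small subunit factors. Protein-coding transcripts only gave 1.82, 0.94 and 0.56 for these, and means in place of medians gave 1.43 and 0.57 for the last 2. The log2 difference of members from all protein-coding genes was 4.59 on posterior mean TPM, 4.36 with a pseudocount of 1 and 2.08 from detected genes. No difference changed sign under any setting run. With each library alone the ranges were 84.1 to 87.3 TPM for the median member, 2.09 to 2.16 for box C/D, 1.49 to 1.52 for box H/ACA, 0.63 to 0.67 for large over small subunit factors and 4.64 to 4.75 for members over other genes, and 3 to 4 members had a leading transcript that is not protein-coding, the fourth being Gar1 in replicate 2. No member passed 2-fold between libraries under any normalization or filter run, and leaving out a library is impossible there. Of single members, 16 moved by more than 1 SD on posterior mean TPM and 18 on protein-coding transcripts only. No paired analysis was possible because there is a single group. With 2 pools, only differences well above the spread between them can be read, and transcript shares rest on estimates for overlapping transcripts.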

Other observations

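Structural RNAs of the same pathway were barely sampled. The U3 guide RNA copies Rnu3b2 and Rnu3b4, near-identical genes, drew 15.5 counts each in both libraries. Rmrp, the RNA of the ribonuclease that cuts the rRNA precursor, drew 8.58 counts in replicate 1 and 5 in replicate 2. Terc, the telomerase RNA bound by the box H/ACA proteins, drew 6 and 2 counts. Snora73b drew 37.0 and 34.9 counts, Snora73a 10.8 and 1.62, and the box C/D guide RNA Snord17 7 and 19. These counts are too low for a comparison between the pools.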
